A study of Mus musculus with 2 samples.

Results

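The 8 RNAs described here are nuclear long noncoding RNAs (Malat1, Meg3, Snhg11 and Airn) and small structural RNAs (Rmrp, Rpph1, Rny1 and Rny3), among 19503 genes with a value. They were chosen by their symbol on the array, as untranslated transcripts, with their values in both fractions already known. Their difference between the fractions is therefore a description and was given no test. RNA was measured in pooled cerebella of mice at postnatal day 7 that carry Tg(Pcp2-L10a-Egfp), a transgene that puts a green fluorescent tag on ribosomal protein L10a under the promoter of the Purkinje cell gene Pcp2. In translating ribosome affinity purification (TRAP), antibody-coated beads collected the tagged ribosomes with their RNA. The bead RNA is the TRAP sample, and the RNA that did not bind is the unbound sample. Each fraction was read once, on 1 array, so no difference below has an error or a replicate check. Both fractions come from the same kind of tissue with the same transgene, and neither the number of pooled animals nor an untagged control is given in the sources used here.

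Long noncoding RNAs such as Malat1 and Meg3 act largely inside the nucleus and are not known for a protein product, while the structural RNAs are short transcripts of RNA polymerase III that work as parts of RNA-protein complexes. Rmrp is the RNA of RNase MRP, which trims ribosomal RNA precursors in the nucleolus, and Rpph1 is the catalytic RNA of RNase P, which cuts the leader from tRNA precursors and also forms the 3' end of Malat1. The Y RNAs Rny1 and Rny3 bind the Ro60 protein. None of these RNAs needs a translating ribosome for its known role, which is why their signal on the bead array is of interest in a ribosome purification.

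All 8 RNAs had a lower value on the TRAP array than on the unbound array, and 6 of them were at least 2-fold lower; Snhg11 and Airn, the other 2, changed sign under the array median and quantile scalings and not under loess. The 3 other scalings tried were subtracting each array's median, matching the quantiles of both arrays, and removing by loess how the difference varies with level. A floor was set at 7.079, the median over every probe set and both arrays, and 10524 genes exceeded it on 1 array or both. In 18.6% of these genes the unbound value was 2-fold or more above the TRAP value, in 4.34% it was 4-fold or more above, and in 55.8% it was higher by any amount. Over all 19503 genes the 2-fold share was 11.0% toward unbound and 4.58% toward TRAP, and 41.9% were lower in TRAP. The members' count is not read against these shares, since the members were chosen with this contrast known. Malat1, Rmrp and Rny1 differed by more than 8-fold, Meg3 and Rpph1 by more than 4-fold and Rny3 by 3.58-fold, whereas Airn and Snhg11 differed by 1.25-fold and 1.21-fold. The median difference of the 8 (TRAP minus unbound, log2) was -2.50, beside -0.13 over the genes above the floor and 0.099 over all genes. Each of the 8 is represented by 1 probe set, and all 8 lay above the floor on both arrays.

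**Figure D1:**
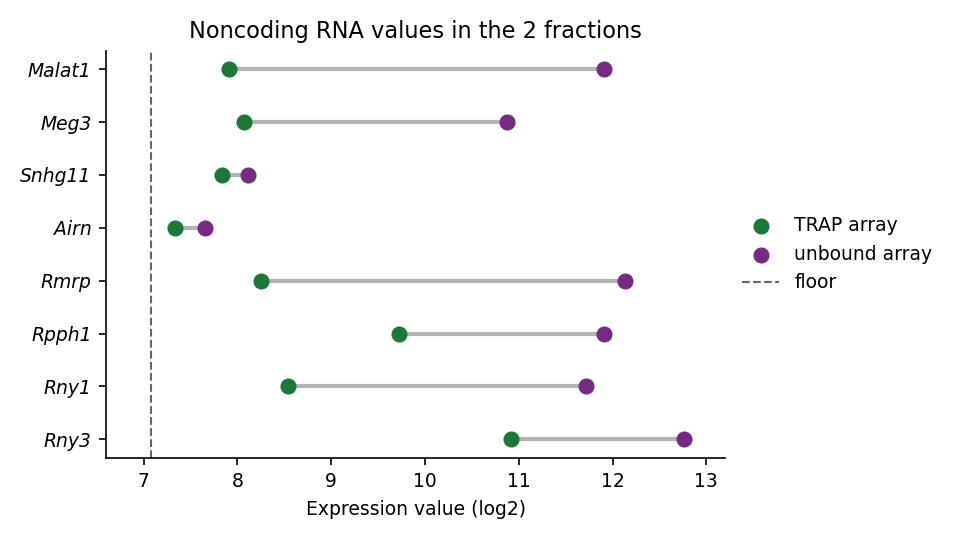
Values of the 8 noncoding RNAs on the TRAP array (green) and on the unbound array (purple), on the log2 scale, with the floor of 7.079 as a dashed line. Each point is 1 array, and the grey bar is the difference; the bars of Snhg11 and Airn are short and those of the other 6 run from -1.84 (Rny3) to -4.00 (Malat1).

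Stretches of the Malat1 and Meg3 promoters are shown because both long noncoding RNAs were far lower in TRAP. They let a reader see which elements lie before or across the starts. RefSeq (GRCm38.p6) held windows of 250 bases before to 50 after the start for 4 of the 8 members, with 2 starts for Meg3, of which the first is used. Capitals mark matches, on either strand, to the cAMP response element TGACGTCA or its core TGACG, or to the TATA box TATAAA; the CCAAT box and the GC box GGGCGG were searched too. The Malat1 stretches lie on the minus strand at chr19:5802701-5802730 and chr19:5802659-5802688, and the Meg3 stretches on the plus strand at chr12:109540928-109540957 and chr12:109540959-109540988.
Malat1, core 45 bases before the start: ggttccggtggagTGACGtgtccctttgca
Malat1, core 3 bases before the start: gctccgggctctgCGTCAggcattcaggca
Meg3, full element: gcagaatgcgcTGACGTCAaagaccacccc
Meg3, TATA box: tctgcgccTTTATATAAAccccacccagcc
The Malat1 window held the core TGACG 3 times and none of the other motifs. The core labelled 3 bases before the start begins there and runs across the start. The Meg3 window held the full TGACGTCA 57 bases before the start, where its 2 cores overlap, TATAAA on both strands in overlapping letters, and 1 CCAAT. The core was present in 20.8% of the 32851 RefSeq promoter windows of this length, the full element in 1.79%, TATAAA in 13.6%, CCAAT in 37.4% and GGGCGG in 35.7%. The Airn window held TATAAA and GGGCGG once each, and the Snhg11 window held no match to these letters. A match is a stretch of letters and not a measured binding site.

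Malat1, a long RNA of nuclear speckles, read 7.91 in TRAP and 11.91 in unbound. The difference of -4.00 is 16.0-fold and left the TRAP signal at 6.25% of the unbound signal on the linear scale. It was the second lowest difference of the 10524 genes, after COX2, a gene of the mitochondrial genome, at -4.46 (7.86 against 12.32). Among the 2109 other genes whose mean level lay within 0.5 of that of Malat1, 1 had a lower difference and the median difference was -0.04. This place among genes of its own level is a description, since Malat1 was chosen with its values known. Of its listed neighbours, Ltbp3, which encodes a binding protein of latent TGF-beta, read 7.74 in TRAP and 8.03 in unbound, and Frmd8 6.93 and 7.68, both with differences under 2-fold.

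Meg3, transcribed from the maternal chromosome of the imprinted Dlk1-Dio3 domain, read 8.07 in TRAP and 10.88 in unbound. Its difference of -2.81 ranked 63rd from the lowest, and the TRAP signal was 14.3% of the unbound signal. Of 2475 other genes of similar mean level, 11 had a lower difference.

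The other genes of the Dlk1-Dio3 domain did not show a difference of this size. Between Dlk1 and Dio3, 44 genes had a value, and 6 of them, Meg3 included, were above the floor. Rian, the next long noncoding RNA of the domain, read 4.71 in TRAP and 5.35 in unbound, both below the floor. The protein-coding genes at its ends, Dlk1 (6.75 and 6.96) and Dio3 (5.21 and 5.09), were below it too. Of 38 miRNA genes with a value, 30 were higher in TRAP and 8 in unbound, with a median difference of 0.19. The 5 above the floor lay between -0.29 and 0.67. As deposited, Mir434 and Mir136 alone reached 2-fold, with 4.13 against 5.46 and 4.09 against 5.30, higher in unbound. Both lay below the floor on both arrays. With each array's median subtracted Mir434 was still at 2-fold, Mir136 fell short at -0.87, and Mir323 (1.08) and Mir369 (1.05), both below the floor, passed 2-fold toward TRAP. The probe sets were read as the array's miRNA genes, and precursor, host transcript and mature miRNA cannot be told apart.

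The mature sequences of these 2 miRNA genes are shown with those of Mir673, the first gene with a value after Meg3, and of Mir341, which had the lowest difference of the domain's 5 miRNA genes above the floor. Sequences are from RefSeq (GRCm38.p6), and capitals mark the seed, bases 2 to 8. These genes were picked after their values were seen.
miR-434-5p: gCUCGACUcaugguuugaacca
miR-434-3p: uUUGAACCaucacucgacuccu
miR-136-5p: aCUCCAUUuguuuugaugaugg
miR-136-3p: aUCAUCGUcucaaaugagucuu
miR-673-5p: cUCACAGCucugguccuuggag
miR-673-3p: uCCGGGGCugaguucugugcacc
miR-341-5p: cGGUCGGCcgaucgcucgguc
miR-341-3p: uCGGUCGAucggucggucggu
The 8 arms carried 8 different seeds, so Mir434 and Mir136 share none. Mir673 read 7.27 in TRAP and 7.11 in unbound, and Mir341 read 7.80 and 8.09, while Meg3 in the same domain differed by -2.81. Mir341 was above 0 once array medians were subtracted or quantiles matched.

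**Figure D2:**
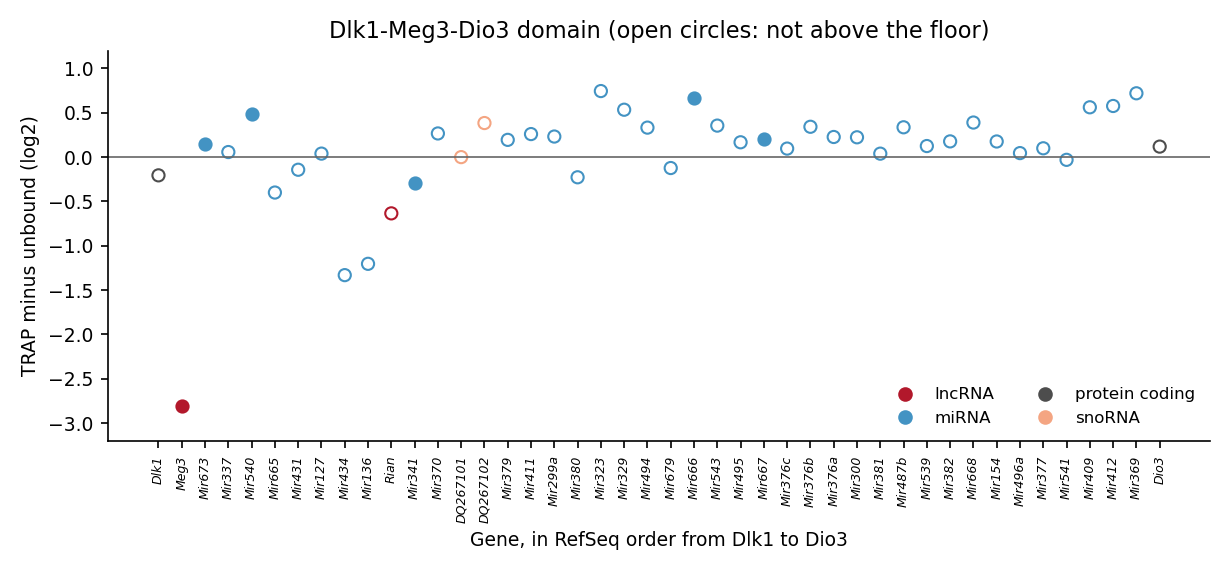
Difference between the fractions (TRAP minus unbound, log2) for the 44 genes with a value from Dlk1 to Dio3, in their order in RefSeq, with filled circles above the floor and open circles not above it. Meg3 stands at -2.81, Mir434 and Mir136 at -1.33 and -1.20, and the other 36 miRNA genes between -0.40 and 0.75.

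Snhg11 and Airn were the 2 members with nearly equal values. Snhg11, a small nucleolar RNA host transcript known from neurons, read 7.84 in TRAP and 8.11 in unbound, a difference of -0.27. Airn, the RNA that is transcribed from the paternal chromosome antisense to Igf2r and silences it, read 7.33 in TRAP and 7.65 in unbound, a difference of -0.32. Genes of their mean level had medians of -0.27 and -0.28, so neither stood apart from its level. Both were above 0 once array medians were subtracted or quantiles matched. On each array these 2 were the members closest to the floor.

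Near Airn, Igf2r, the receptor gene that Airn overlaps in antisense, read 6.72 and 6.80. Slc22a2, Mas1 and Plg of the same neighbourhood were also below the floor on both arrays, with differences from 0.16 to 0.25.

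The 4 structural RNAs were all at least 2-fold lower in TRAP, with a median difference of -2.68, while the 4 long noncoding RNAs had a median of -1.56. Rmrp read 8.25 in TRAP and 12.13 in unbound. This difference of -3.88, or 14.7-fold, was the fifth lowest of the 10524 genes, and the TRAP signal was 6.79% of the unbound signal. Rpph1 read 9.72 in TRAP and 11.91 in unbound. Its 4.56-fold difference left 21.9% of the unbound signal. The differences of these RNAs, which share most of their protein partners, were 1.69 apart on the log2 scale, and with 1 array each this gap could not be tested.

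The Y RNAs separated as well. Rny1 read 8.54 in TRAP and 11.71 in unbound, a difference of -3.17 or 9.01-fold. Rny3 read 10.92 in TRAP and 12.76 in unbound, a difference of -1.84 or 3.58-fold. The TRAP signal was thus 11.1% of the unbound signal for Rny1 and 27.9% for Rny3, which lie close together in RefSeq, with a pseudogene between them, and are 111 and 101 bases long. Among genes of similar mean level, 4 of 1927 had a lower difference than Rny1 and 2 of 369 a lower one than Rny3. The smaller difference of Rny3 was near the low end for its level too, a description of an RNA chosen with its values known. The gap of 1.33 between the 2 Y RNAs was not tested.

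**Figure D3:**
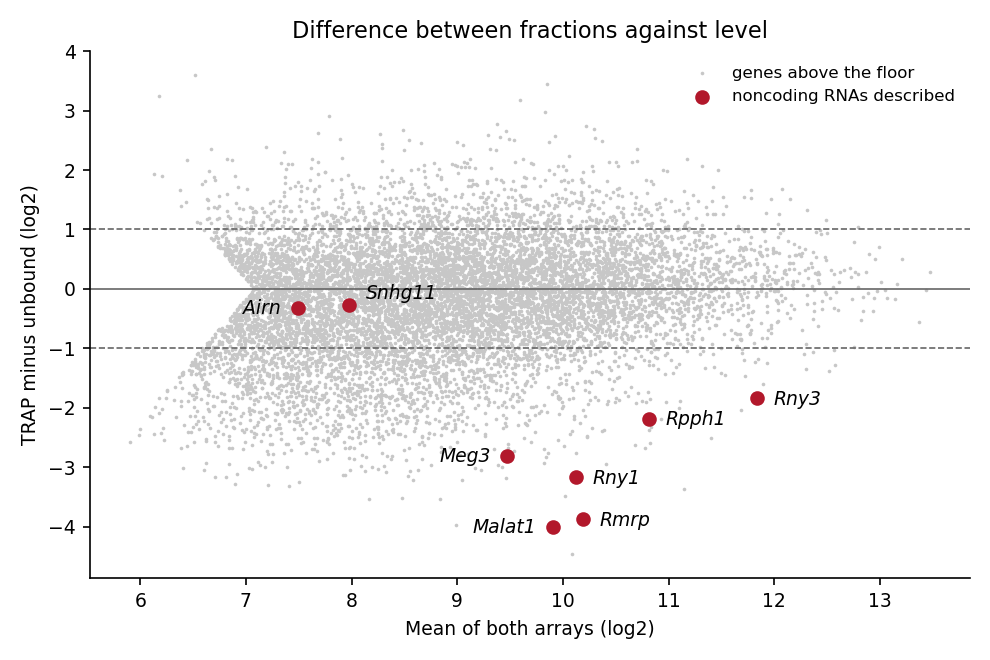
Difference between the fractions (TRAP minus unbound, log2) against the mean of both arrays (log2) for the 10524 genes above the floor (grey) and the 8 noncoding RNAs (red), with dashed lines at 2-fold. Malat1 and Rmrp lie at -4.00 and -3.88, Rpph1 and Rny3 along the lower edge at higher means, and Snhg11 and Airn within the cloud.

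Other structural RNAs above the floor differed less, but apart from Rn7sk they read far lower in unbound than Rmrp, Rpph1 and the Y RNAs. Rn7sk, the RNA that holds the elongation factor P-TEFb inactive in the nucleus, read 11.94 in TRAP and 13.21 in unbound, a difference of -1.28 that fell short of 2-fold (-0.95) with the array medians subtracted. Rprl1 and Rprl2, genes with RNase P RNA-like sequence, differed by -0.30 and -0.07, and both were above 0 once array medians were subtracted or quantiles matched; Rprl2 was above 0 after loess removal too. Rnu12, the U12 RNA of the minor spliceosome, differed by -0.02 and was positive under each of these 3 scalings. Rprl1 read 6.98 in TRAP and 7.28 in unbound, Rprl2 8.32 and 8.39, and Rnu12 7.20 and 7.22. At these levels a drop as large as that of Rny3 would have ended below the floor, so their small differences are not like for like. Of the 9 listed structural RNAs with a value, Rn7sk, Rprl1, Rprl2 and Rnu12 were above the floor, and Rn7sk alone reached 2-fold. Telomerase RNA (Terc) read 5.96 and 5.94, not above the floor. Vaultrc5, Rnu3a, Rnu5g and Rnu7 were not above it either, with differences from -0.58 (Rnu3a) to 0.44 (Rnu7). The array gene n-R5s136, a copy of the 5S RNA of the large ribosomal subunit, went the other way, with 9.74 in TRAP and 8.05 in unbound, or 3.22-fold higher in TRAP. It was singled out after its value was seen, and near-identical 5S copies could share its probes.

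The mRNAs for the protein partners did not follow their RNAs. The RNase P and RNase MRP proteins had 9 genes above the floor, of which 6 had the higher value in TRAP. The difference reached 2-fold toward TRAP in 4 and toward unbound in 1. Pop5 read 8.93 in TRAP and 7.21 in unbound (3.28-fold higher in TRAP) and Pop7, another protein subunit, 8.92 and 7.59 (2.51-fold). At the other end, Rpp25 read 7.28 and 8.32 and Rpp38 8.84 and 9.30; Rpp25 fell short of 2-fold under each of the other 3 scalings. The list's median was 0.59, while Rmrp and Rpph1 themselves were 14.7-fold and 4.56-fold lower in TRAP. Among the 10524 genes, 8.11% reached 2-fold toward TRAP.

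The Ro60 and La group was close to even. Ro60, which encodes the Y RNA binding protein, read 9.90 in TRAP and 10.16 in unbound, and Ssb, which encodes the La protein that binds the ends of new polymerase III transcripts, 11.29 and 11.19. Ro60 was above 0 once array medians were subtracted, and Ssb was just below 0 after loess removal. None of the 7 genes of this list above the floor reached 2-fold. The lowest were Larp4, at -0.67, and Ro60, at -0.26, and the highest Ssb, at 0.10, and Mepce, the capping enzyme gene of 7SK RNA, at 0.01. The list's median was -0.14, and it was above 0 with array medians subtracted and with quantiles matched.

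Genes of RNA polymerase III and its promoter factors split evenly as deposited, with 8 of 16 higher in each fraction and none past 2-fold. With array medians subtracted 13 of the 16 were higher in TRAP, with quantiles matched 11 and after loess removal 10, and Polr3d passed 2-fold toward TRAP under the array median (1.13) and quantile (1.03) scalings. Polr3d, a polymerase III subunit gene, and Snapc2, of the complex that binds promoters of small nuclear RNA type, were highest at 0.80 and 0.61. Polr3f and Bdp1, a subunit gene and a gene of the initiation factor TFIIIB, were lowest at -0.73 and -0.72. The median was -0.01, with a positive sign under each of the other 3 scalings. Among the listed genes around the structural RNAs, Ccdc107, next to Rmrp in RefSeq, read 7.95 in TRAP and 6.76 in unbound, and Parp2, which starts next to Rpph1, 8.58 and 8.79. Parp2, a poly(ADP-ribose) polymerase gene, was above 0 once array medians were subtracted or quantiles matched. Arhgef39, Ccnb1ip1 and Pdia4, near Rmrp, Rpph1 and the Y RNAs, were below the floor on both arrays, with differences of -0.02, 0.05 and -0.01. The ubiquitin ligase scaffold gene Cul1, listed for the region of the Y RNAs, differed by -0.46, and Ezh2, a Polycomb histone methyltransferase gene of dividing progenitors, by -2.38.

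As a class, RefSeq lncRNA genes above the floor did not share the low differences of Malat1 and Meg3, though they were not matched to these 2 by level. The 125 above the floor comprised 88 with the higher value in TRAP, and 2-fold was reached by 25 toward TRAP and by 7 toward unbound. The median was 0.34, and 0.35 over the 121 without the members, beside -0.14 over 10301 protein-coding genes. Malat1 and Meg3 were the lowest of the class, followed by Gm24463 (4.91 in TRAP and 7.36 in unbound) and Firre, an X-linked RNA that stays in the nucleus (6.32 and 7.98). A730036I17Rik (9.51 and 7.07) and Gm10190 (9.68 and 7.69) were highest. A730036I17Rik passed the floor through the TRAP array alone, and Gm24463 and Firre through the unbound array alone. With the floor set on the mean of both arrays, the 25 toward TRAP became 19 and the 7 toward unbound became 6.

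Among 20 other long RNAs listed for the nucleus, 7 had a value and 5 were above the floor. Firre was 3.17-fold higher in unbound, with its TRAP value below the floor, and Pvt1, next to Myc, was 2.73-fold higher in TRAP. Norad, an RNA known mostly from the cytoplasm, where it binds Pumilio proteins, read 10.60 in TRAP and 11.36 in unbound, Pantr1 read 6.92 and 7.78, and Tug1 10.85 and 10.90. The median of these 5 was -0.76, and Tug1 was above 0 once array medians were subtracted. Of 4 listed host genes of small nucleolar RNAs with a value, Snhg5 was above the floor, at 7.80 and 8.60.

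miRNA genes were mostly higher in TRAP by less than 2-fold, with 22 of 28 above the floor and a median of 0.47; 4 passed 2-fold toward TRAP with array medians subtracted and 3 with quantiles matched. Mir568 (6.69 in TRAP and 9.69 in unbound) and Mir692-1 (7.27 and 8.88) were the lowest, and Mir483 (7.76 and 6.93) and Mir615 (7.70 and 6.96) the highest. Mir568 passed the floor through the unbound array alone, and Mir483 and Mir615 through the TRAP array alone. Small nucleolar RNA genes had 10 above the floor, with 3 past 2-fold toward unbound and 1 toward TRAP. The count of 3 fell to 0 when the floor was set on the mean of both arrays or at the 75th percentile, and Snora23 and Snord82 passed the floor through the unbound array alone. Snora23 (5.50 and 8.18) and Snord82 (5.65 and 7.41) were lowest, and Snord42b (8.52 and 7.50) and Snora7a (7.33 and 6.95) highest.

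**Figure D4:**
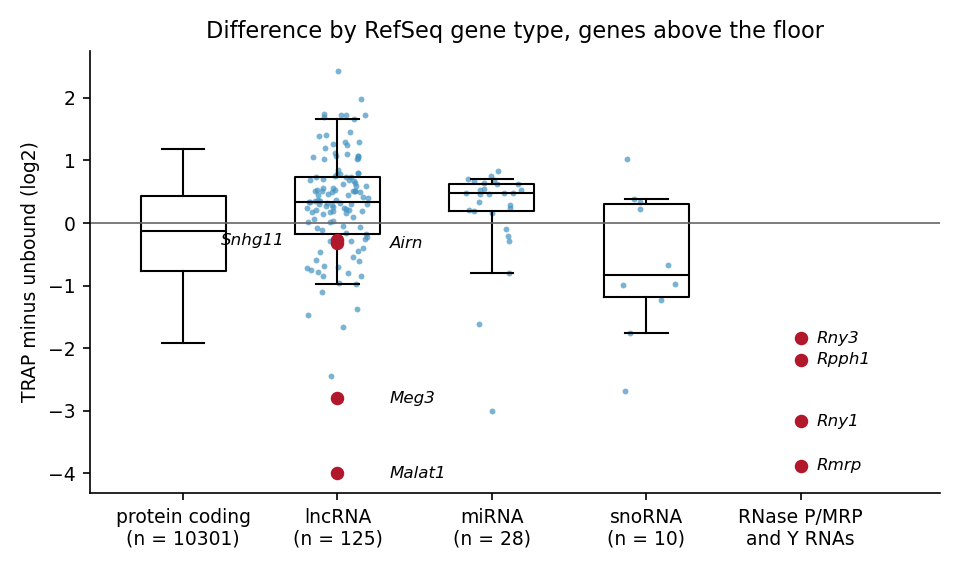
Difference between the fractions (TRAP minus unbound, log2) by RefSeq gene type for genes above the floor, with boxes at the quartiles, whiskers at the 5th and 95th percentiles, single genes as blue points where a type has few, and the 8 noncoding RNAs in red. The lncRNA median is 0.34, with Malat1 and Meg3 at its low end, and the 4 structural RNAs lie between -3.88 and -1.84.

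Likeness to another gene was described by the distance between 2 genes over their 2 log2 values, 1 per array. Part of this distance is the level of different probes, which depends on the probe as well as on the RNA, so the nearest genes below are names by that rule and not a ranking. Lin7a, a scaffold gene of cell junctions and synapses, was nearest to Malat1 (0.39), Rmrp (0.37) and Rny1 (0.27), with 8.28 in TRAP and 11.77 in unbound. Ccna2, the cyclin A2 gene, was nearest to Meg3 (0.097), Dcx, a gene of migrating neurons, to Rpph1 (0.10), and Trp53i11 to Rny3 (0.060). The noncoding genes named by the same rule were Mir568 for Malat1 (2.53), Norad for Rmrp (2.48), Rny1 (2.09) and Rpph1 (1.04), A630089N07Rik for Meg3 (1.76) and Rn7sk for Rny3 (1.12). Snhg11 had Fhdc1 and the lncRNA 4632404H12Rik at 0.023 and 0.024, and Airn had Oxsm at 0.033 and Kcnmb4os2 at 0.14.

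Markers of other cell types moved in the same direction as the 6 lower members. Pcp2, the gene whose promoter drives the tag, read 12.98 in TRAP and 11.65 in unbound, and Rpl10a, which encodes the tagged protein, 12.67 and 12.13. All 12 Purkinje cell markers with a value read higher in TRAP, and 7 reached 2-fold, or 12 with array medians subtracted. Of 49 markers above the floor for granule neurons, their progenitors, interneurons, astrocytes and Bergmann glia, oligodendrocytes, and microglia and vessels, 48 read higher in unbound and 41 reached 2-fold, and the median was -2.05. With array medians subtracted, Mycn and Trem2 read above 0, and 7 of 10 granule neuron markers reached 2-fold toward unbound (10 as deposited). Under that scaling so did 8 of 10 progenitor and 7 of 10 astrocyte and Bergmann glia markers. The same held for 7 of 8 oligodendrocyte, 4 of 6 microglia and vessel and 2 of 5 interneuron markers. As deposited, the medians of the 6 lists ran from -2.30 to -1.27. Their summed linear TRAP signal ran from 23.9% to 40.8% of the unbound one, a sum in which the brightest probes weigh most. None of the 49 was as low as Malat1; 14 lay below the members' median, and 18 had a TRAP value at or below the floor. The lowest were Ccnb2 (-3.98) and Gfap (-3.92), of dividing cells and astrocytes, and Hopx (0.93) was the exception as deposited. Hopx passed 2-fold toward TRAP (1.27) with array medians subtracted. The part that cell type plays in the members' differences was not tested. Unbound RNA can come from other cells or from Purkinje cells, and these values cannot tell the 2 apart. No value here separates RNA bound to ribosomes, RNA carried over with the beads and probe background, and which of these gave the members' TRAP signal was not tested.

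**Figure D5:**
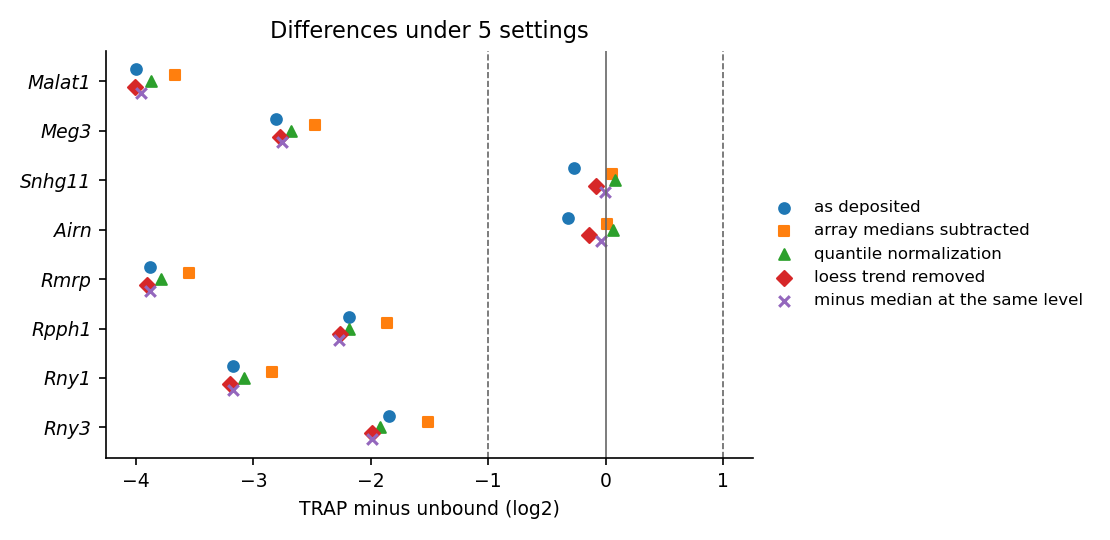
Difference between the fractions (TRAP minus unbound, log2) of each of the 8 noncoding RNAs as deposited, with array medians subtracted, after quantile normalization, after removal of a loess trend, and minus the median of genes of the same level, with dashed lines at 2-fold. The 6 lower RNAs stay beyond 2-fold under all 5, from -1.51 (Rny3) to -4.00 (Malat1), and Snhg11 and Airn lie around 0.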

How the data were processed

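RNA from the TRAP and unbound fractions, 1 sample each, was hybridised to Affymetrix whole-transcript mouse arrays as biotin-labelled sense-strand cDNA, per the labels' protocols. For every probe set on each array the authors deposited an expression value, read here as log2 from its range. The submitters' processing notes name Affymetrix Power Tools. The sources used here do not state the log base, the tool's version or how background and normalization were handled. The number of arrays limits the precision, and depth does not apply.

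Of 22097 probe sets, 20999 name 1 gene through the platform annotation, 91 with several names were not used, and 1007 have no name here. They were averaged to 19503 genes, 19466 of which matched RefSeq (GRCm38.p6) by Entrez identifier for gene types. The array medians were 6.92 (TRAP) and 7.25 (unbound). No build is named for the values, so RefSeq gave gene order and the promoter stretches only. With 1 array per fraction no test was run; a difference of at least 2-fold was the size rule. The members and lists were chosen with earlier results of these data known. Named genes are mainly the members, Pcp2 and Rpl10a, the listed neighbours and the nearest gene to each member. The 2 highest and 2 lowest genes above the floor are named for each list and for lncRNA, miRNA and snoRNA genes (all where 5 or fewer). Other genes, among them Terc, n-R5s136 and miRNA genes of the Dlk1-Dio3 domain, were named outside this rule. Marker lists are given mostly as ranges. Alternatives were 3 scalings (array medians subtracted, quantile normalization, loess with span 0.3), other floors, folds of 1.5 and 4, and the brightest probe set. Over all genes, the median difference went with subtraction of the array medians from 0.099 to 0.43. Python 3.11.15 and statsmodels 0.14.6 were used, and scripts were tested on simulated data.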

Additional observations from a re-analysis of the deposited data

How the results depend on the processing

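The 6 members at least 2-fold lower in TRAP kept that direction and size under the 3 scalings and relative to genes of the same level, with differences from -1.51 to -4.00. The count was 6 under the 3 scalings, at 1.5-fold and with the floor at the 75th percentile or on the mean of both arrays, and 5 at 4-fold. The brightest probe set and no floor could not change this count, since each member has 1 probe set and lies above the floor. All 8 members lie above the floor on each array, so applying the floor to their mean level could not change the count either. The looser cut of 1.5-fold could not lower it. Subtracting the array medians moves every difference by the same amount, from -1.84 to -1.51 for Rny3, the smallest of the 6. That scaling could therefore not change the count. Malat1, Meg3, Rmrp and Rny1 passed the 75th percentile floor (9.01) through the unbound array alone. Snhg11 turned to 0.058 with the array medians subtracted and to 0.076 after quantile normalization, and Airn to 0.0098 and 0.064; the cause was not tested. For lncRNA genes, the 7 higher in unbound became 13 with no floor, 2 with a floor at the 75th percentile, 19 at 1.5-fold and 3 at 4-fold; the 25 higher in TRAP became 38 with the array medians subtracted, 10 with the higher floor, 42 at 1.5-fold and 1 at 4-fold. The floors and folds change these counts by construction. Of 288 counts of other lists under the alternatives 250 stayed within 1.5 times and 38 moved further, and of 48 counts of gene types 27 stayed and 21 moved. Counts that were 0 both times are among those that stayed. The lists of Meg3 and Airn neighbours had 0 genes above the floor, so their counts at 1.5-fold and 4-fold could only be 0. The 3 snoRNA genes higher in unbound became 10 with no floor, 6 at 1.5-fold and 1 at 4-fold. No paired analysis was possible because each fraction has 1 array. No detection calls or scanner signals were used here, so how far the members' TRAP values stand above background is unknown.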

Other observations

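Small nucleolar RNA genes split by box when no floor was applied, a grouping by symbol that was made after the values were seen. Of 29 box C/D genes (Snord symbols), which guide ribose methylation, 22 read higher in unbound, 9 reached 2-fold in that direction, and the median difference was -0.41. Of 20 box H/ACA genes (Snora symbols), which guide pseudouridylation, 9 read higher in unbound, 1 reached 2-fold, and the median was 0.12. With no floor, 11.0% of all genes reached 2-fold toward unbound, and 41.9% were lower in TRAP. The split by box was counted as deposited only, and subtracting the array medians moves every difference toward TRAP. Snord87 read 4.30 in TRAP and 6.79 in unbound and Snord47 4.13 and 6.17, whereas Snord42b read 8.52 and 7.50. Snora23, the H/ACA gene past 2-fold, read 5.50 and 8.18. Only 6 of the 29 and 4 of the 20 were above the floor, and the difference between the boxes was not tested.

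The mRNA of Zbtb20, a transcription factor gene of the nervous system that ends near Mir568 in RefSeq without containing it, read 8.52 in TRAP and 10.77 in unbound. This is 4.76-fold, beside 8.01-fold for Mir568. Ipo7, the importin gene whose span holds Snora23, read 9.49 and 10.02, a 1.44-fold difference, beside 6.42-fold for Snora23. These pairs were singled out after their values were seen.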
